A study of Mus musculus with 6 samples.

Results

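Aminoacyl-tRNA synthetases were examined in adult mouse pancreatic acinar cells, the exocrine cells that secrete digestive enzymes, with and without Trip12, which encodes an E3 ubiquitin ligase. The genes were chosen by symbol. The rule took protein-coding genes named for a synthetase by its one-letter amino acid code, alone or ending in 1 or 2. Tars3 falls outside it. To these were added Eprs1, Farsa, Farsb, the scaffold genes Aimp1 and Aimp2, and Qrsl1. This gave 40 of the 55414 genes counted, and no matched symbol had to be dropped. They comprise 18 cytosolic synthetases, 2 genes whose products serve both the cytosol and mitochondria (Gars1 and Kars1), 17 mitochondrial synthetases, 2 scaffolds and 1 subunit of the mitochondrial amidotransferase. All 40 passed the filter on low counts, and the lowest count of any of them in any library was 12.

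The controls were 3 untreated acinar preparations of genotype Pdx1Cre;Trip12+/+, and the knockouts were 3 untreated preparations of genotype Pdx1Cre;Trip12fl/fl. Both groups therefore carry the Cre transgene, whose Pdx1 promoter is active in the pancreatic progenitors that give rise to acinar, duct and islet cells. Each preparation gave 1 poly-A RNA-seq library, and the labels call the preparations biological replicates numbered 1 to 3 in both groups. Whether a preparation was 1 animal or a pool, its age beyond adult and its sex are not given in the sources used here, so the p-values measure the spread between these preparations.

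Aminoacyl-tRNA synthetases join each amino acid to its tRNA and so supply every ribosome with its substrates. The cytosol and the mitochondrion have largely separate sets, both encoded in the nucleus. In animals several cytosolic synthetases sit in a multisynthetase complex held together by the AIMP scaffold proteins. Uncharged tRNA activates the kinase GCN2 and, through it, translation of the transcription factor ATF4, and many cytosolic synthetase genes are known ATF4 targets. The acinar cell has one of the highest rates of protein synthesis in the body.

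Promoter sequences were looked up because ATF4 acts on cytosolic synthetase genes through a composite C/EBP-ATF element. The core TGATGNAA (TTNCATCA on the other strand) was searched on both strands in windows of 300 bases, from 250 before to 50 after the start, in the RefSeq table of build GRCm38.p6, which held 30 of the 40 genes. It occurred in 5 of 13 cytosolic or dual genes (Aars1, Gars1, Iars1, Tars1 and Yars1), in none of 14 mitochondrial ones, and in 4.51% of 27025 genes overall. The palindrome CGCATGCG, the centre of the site bound by NRF1, a regulator of nuclear genes for mitochondrial proteins, occurred in 2 of the 14 mitochondrial genes (Vars2 and Wars2), in none of the 13 cytosolic or dual genes and in 2.07% overall. It was chosen after the Vars2 promoter had been seen, and the longer site with a G before it and a C after it occurred in none of these 27 genes and in 1.07% overall. The 150 bases before the start are given for 3 genes with the C/EBP-ATF core (capitals) and for the 3 mitochondrial genes on which the comparison below turns, with the NRF1 centre in capitals in Vars2. A match of letters is a description and not evidence of binding.
Tars1, chr15:11399659-11399808, minus strand: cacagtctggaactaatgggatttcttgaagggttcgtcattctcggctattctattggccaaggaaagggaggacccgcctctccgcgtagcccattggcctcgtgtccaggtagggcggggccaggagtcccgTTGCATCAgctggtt
Gars1, chr6:55037851-55038000, plus strand: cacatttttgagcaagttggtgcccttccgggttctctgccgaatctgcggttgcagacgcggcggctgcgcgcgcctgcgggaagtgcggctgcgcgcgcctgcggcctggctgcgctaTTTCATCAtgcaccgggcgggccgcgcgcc
Aars1, chr8:111033692-111033841, plus strand: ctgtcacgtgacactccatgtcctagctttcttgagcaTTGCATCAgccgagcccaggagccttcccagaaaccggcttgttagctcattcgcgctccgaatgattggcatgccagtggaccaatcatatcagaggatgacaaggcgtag
Vars2, chr17:35667593-35667742, minus strand: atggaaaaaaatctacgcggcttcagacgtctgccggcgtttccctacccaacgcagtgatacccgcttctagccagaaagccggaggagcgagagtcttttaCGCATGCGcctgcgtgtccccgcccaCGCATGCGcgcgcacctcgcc
Tars2, chr3:95754978-95755127, minus strand: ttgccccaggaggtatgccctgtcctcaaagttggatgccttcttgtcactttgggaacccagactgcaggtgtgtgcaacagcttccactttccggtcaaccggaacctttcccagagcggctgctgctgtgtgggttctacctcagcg
Lars2, chr9:123366777-123366926, plus strand: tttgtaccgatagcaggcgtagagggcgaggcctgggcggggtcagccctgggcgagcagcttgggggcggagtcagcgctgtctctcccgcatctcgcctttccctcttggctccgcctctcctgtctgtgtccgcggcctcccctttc
The core starts 15 bases before the gene's start in Tars1, 30 in Gars1 and 112 in Aars1, and the NRF1 centre starts 47 and 21 bases before it in Vars2.

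Libraries held 31019500 to 34041901 gene counts. Levels are given as CPM, counts scaled to a common library size with TMM factors (trimmed mean of M values), and differences as log2 fold changes of knockout over control. Trip12 (ENSMUSG00000026219) stood at 29.0, 22.3 and 26.4 CPM in controls 1 to 3, against 14.4, 14.7 and 13.0 CPM in the knockouts, a log2 fold change of -0.89 (SE 0.14; adjusted p 0.0256, edgeR's quasi-likelihood test, Benjamini-Hochberg over all genes). Counts over a whole gene do not show which exons remain. Acinar markers were high in every library, with the 14 genes summing to between 540983 and 727158 CPM in control and between 448725 and 463747 CPM in knockout. All knockout sums lay below all control sums with this TMM scaling. With library totals the 14 genes had a median log2 fold change of -0.03, with 7 of 14 below 0. With the replicate number as a block, edgeR called 1 of the 14 higher (Rbpjl, log2 fold change 1.23) and 3 lower (Cpb1, Cela2a and Ptf1a), against 3.4% and 2.58% of all genes. In 7 of the 14 all knockouts lay below all controls, and in Rbpjl all lay above, against 10.9% and 12% of all genes. Markers of other cells were far lower, and the sums of these lists overlapped between the groups. Summed CPM ran from 27.0 to 174 in control and from 25.6 to 121 in knockout for 12 leukocyte genes, from 30.0 to 130 and from 37.9 to 151 for 10 stromal and endothelial genes, from 255 to 312 and from 229 to 334 for 9 duct genes, and from 352 to 459 and from 242 to 908 for 8 islet genes. None of these markers was at 0 in any library. Single genes did differ. With the replicate number as a block, edgeR called 5 of 9 duct markers (Krt7, Spp1 and Pkhd1 higher, Krt19 and Muc1 lower). It also called 4 of the 11 leukocyte markers tested (C1qa, C1qb, C1qc and Adgre1, all higher) and 1 of 8 islet markers (Pcsk2, higher). Over all genes 5.99% were called. None of the 10 stromal and endothelial genes was called, and all 10 had a log2 fold change above 0. The part of these cells in the synthetase values was not tested. Xist counts were 2118 and 2440 for control replicates 2 and 3 and 5 at most for the other 4 libraries, so sex and genotype are partly confounded. In bulk RNA, fewer cells of a type and less RNA per cell cannot be told apart.

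In control acinar cells the cytosolic set spanned a wide range of levels. Per kilobase of exon, Wars1, encoding the tryptophanyl-tRNA synthetase, had the highest mean, at 27.3 CPM per kb ± 12.4 (SD, n = 3). Nars1 for asparagine followed at 19.4 ± 2.31, Mars1 for methionine at 17.9 ± 2.49 and Gars1 for glycine at 16.7 ± 1.24 CPM per kb. Each of these 4 overlapped its neighbour in the order. The next steps did not overlap: Gars1 lay above Sars1 for serine (13.4 CPM per kb ± 1.67), Sars1 above Kars1 for lysine (8.35 ± 0.708) and Kars1 above Lars1 for leucine (7.10 ± 0.809). From Lars1 down to Aars1 for alanine (3.91 CPM per kb ± 0.634) every gene overlapped the next one. Eprs1, a fusion of the glutamyl and prolyl enzymes, and Farsa, the phenylalanyl alpha subunit, came last at 2.55 ± 0.381 and 2.29 CPM per kb ± 0.120. Exon lengths are unions over all annotated transcripts, so a gene with many long annotated forms, such as Eprs1 with 18.1 kb, may be placed too low.

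Wars1 was also the most variable cytosolic member. It measured 56.1, 85.5 and 140 CPM across controls 1 to 3, against 101, 80.4 and 101 CPM across the knockouts. The range of the controls enclosed all 3 knockouts.

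Mitochondrial synthetases were expressed at lower levels. Control means ran from 0.540 CPM for Pars2, which charges the mitochondrial prolyl tRNA and had 12 to 25 counts per library, to 17.6 CPM for Iars2, with Lars2 apart from the rest at 169 CPM. Per kilobase, Lars2 stood at 15.2 CPM per kb ± 8.37 (SD, n = 3) and did not overlap the next gene, Rars2, at 2.18 ± 0.138. Rars2, Iars2, Yars2, Hars2, Fars2, Tars2 and Cars2 each overlapped the next gene in that order, and a gap separated Cars2 (0.916 CPM per kb ± 0.0392) from the genes below it. Wars2 and Pars2 came last, below a gap under Mars2, at 0.197 ± 0.0216 and 0.175 CPM per kb ± 0.0322.

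**Figure D1:**
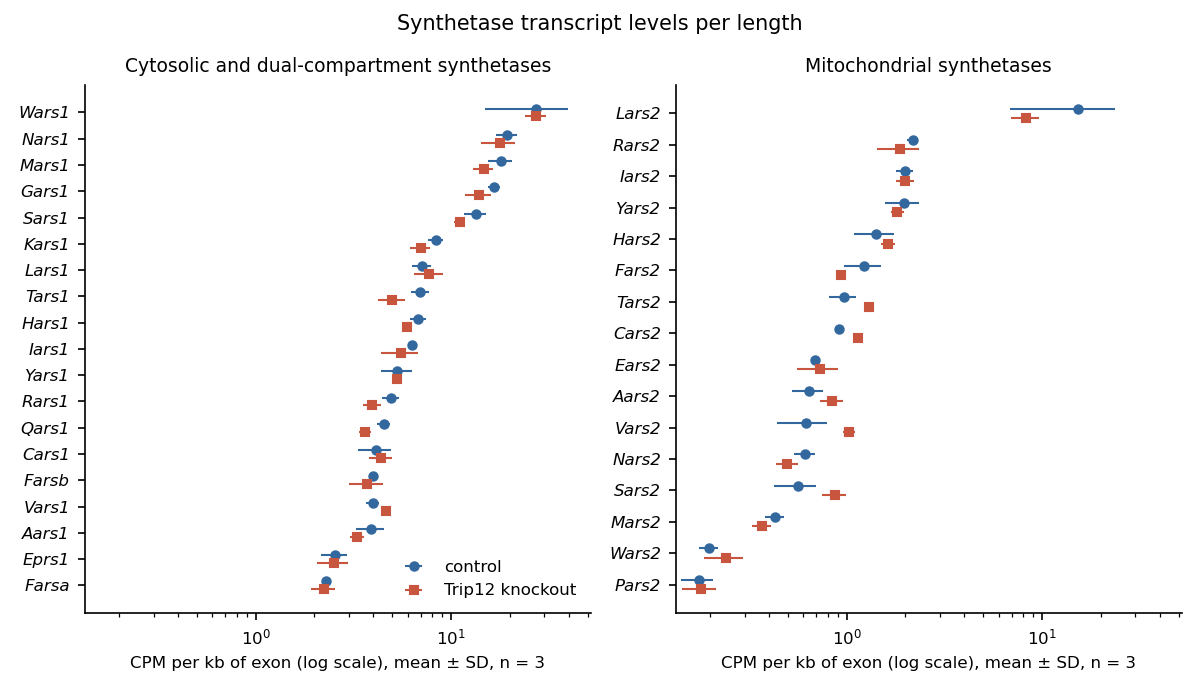
Transcript level per kilobase of exon (CPM per kb, log scale) of 19 cytosolic or dual-compartment synthetases (left) and 16 mitochondrial synthetases (right) in control (circles) and Trip12 knockout (squares); points are means and bars SDs of 3 libraries. Wars1 tops the left panel at 27.3 CPM per kb in control, and Lars2 stands apart from the other mitochondrial genes at 15.2.

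Loss of Trip12 was compared with control next. No synthetase, scaffold or amidotransferase gene passed the test: edgeR's quasi-likelihood test called 0 of 40 at an adjusted p under 0.05, against 0.945% of the 13115 genes tested (0.465% higher and 0.48% lower). DESeq2's Wald test also called 0 of 40, against 4.54% of the genes it gave an adjusted p. At an unadjusted p under 0.05 there were 9 of 40, or 4 cytosolic, 4 mitochondrial and 1 scaffold gene, against 16.7% of all genes. Every log2 fold change lay between -0.87 and 0.75, with standard errors from 0.12 to 0.46 and a median of 0.17. The groups did not overlap in 12 of the 40, against 22.9% of all genes. Knockout was higher in 5 of them (12% of all genes) and lower in 7 (10.9% of all genes). Here and for every single gene, overlap was read on CPM with TMM factors only. These factors were 0.79 to 1.02 in control and 1.12 to 1.19 in knockout. Overlap with library totals was not computed.

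The labels do not say that equal replicate numbers pair the preparations. The number was used as a block because same-numbered libraries deviated together from their group means in these same data. This was weakest for number 3, with a correlation of 0.285 against 0.21 for control replicate 3 with knockout replicate 2. The blocked calls therefore rest on a pairing that the labels do not give. With the number as a block, 2 of 40 members were called, against 5.99% of all genes (3.4% higher and 2.58% lower). They were Vars2, higher in knockout, and Lars2, lower. Both encode mitochondrial enzymes, for valine and leucine.

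The 2 compartments differed in where their members lay. The 20 cytosolic and dual genes had a median log2 fold change of -0.19 against 0.02 for all genes tested, with 16 of 20 below 0, as were 47.6% of all genes. The 17 mitochondrial genes had a median of 0.04, with 10 of 17 above 0, as were 52.4% of all genes. In every numbered pair the knockout was lower in 8 and higher in 1 of the 20 cytosolic and dual genes, and lower in 4 and higher in 5 of the 17 mitochondrial ones, against 20.7% lower and 24.2% higher over all genes. The signs of the medians depend on the scaling: library totals in place of TMM moved the median of all genes up by 0.407, and then only 1 of 20 cytosolic or dual genes lay below 0 and the medians were 0.23 and 0.46. Set against the median of all genes in the same fit, the cytosolic median was -0.21 with TMM and -0.20 with library totals, and 17 and 16 of the 20 genes lay below that median. The mitochondrial median was 0.02 and 0.03 away from it. These medians describe the lists and carry no test.

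**Figure D2:**
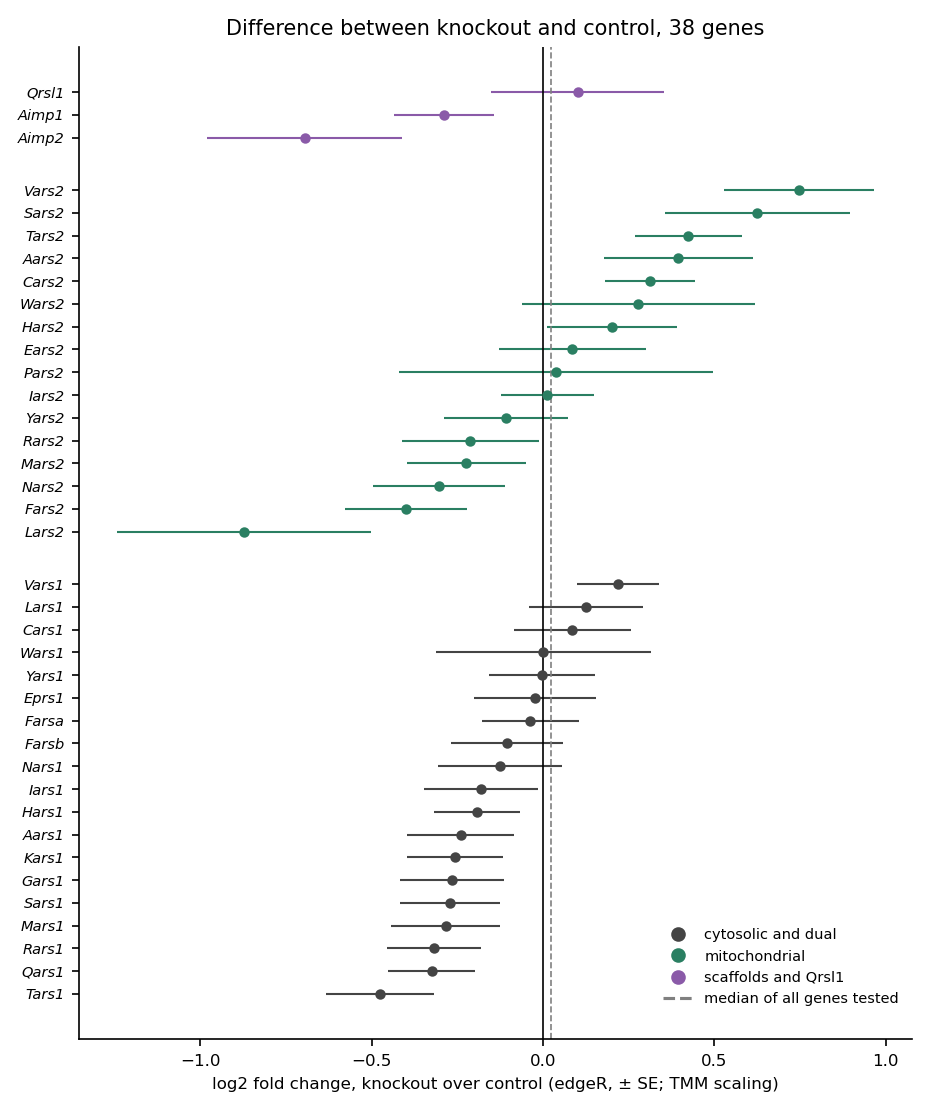
Log2 fold change of knockout over control for 38 genes (edgeR with TMM scaling, bars ± SE), in 3 blocks: cytosolic and dual (bottom), mitochondrial (middle), scaffolds and Qrsl1 (top); the dashed line is the median of all genes tested, 0.02. The cytosolic points run from -0.47 for Tars1 to 0.22 for Vars1, and the mitochondrial points from -0.87 for Lars2 to 0.75 for Vars2.

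Among the cytosolic enzymes the lowest fold change was that of Tars1 (ENSMUSG00000022241), which charges threonyl tRNA. It gave 39.2, 46.0 and 37.8 CPM in its controls and 24.7, 33.9 and 30.0 CPM in its knockouts. All knockouts lay below all controls, and the knockout was lower in each numbered pair. Its log2 fold change stood at -0.47 (SE 0.16), and edgeR's adjusted p was 0.189, or 0.0603 with the block. Without pair 1, 2 or 3 the blocked adjusted p was 0.164, 0.329 and 0.0454. With library totals its log2 fold change was -0.06 (adjusted p 0.784).

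Qars1 (ENSMUSG00000032604), the glutaminyl enzyme, measured 28.1, 28.8 and 32.5 CPM across controls 1 to 3, against 22.0, 24.3 and 25.2 CPM across the knockouts. Rars1 (ENSMUSG00000018848), the arginyl enzyme, measured 14.8, 17.7 and 15.3 CPM across controls 1 to 3, against 11.3, 13.5 and 13.6 CPM across the knockouts. In both genes the groups did not overlap, each with a log2 fold change of -0.32, and edgeR's adjusted p were 0.255 and 0.293. With library totals their log2 fold changes were 0.09 and 0.10, both still below the median of all genes.

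Both enzymes belong to the multisynthetase complex. Of the 10 complex members examined, among them Eprs1, Iars1, Lars1, Mars1, Kars1 and the scaffolds Aimp1 and Aimp2, 9 had a log2 fold change below 0 and 4 had all knockouts below all controls, against 10.9% of all genes. The median over the 10 was -0.29, and -0.31 against the median of all genes (-0.29 with library totals). With library totals 1 of the 10 lay below 0 and 9 lay below the median of all genes. The separation of the groups was read with TMM scaling only. Without knockout replicate 1 it was -0.23 against all genes, with 8 of 10 below. Of the 12 cytosolic and dual synthetases outside the complex, 9 lay below 0, with a median of -0.12. The difference between the 2 sets was not tested, and none of the 10 was called, with or without the block.

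The scaffold Aimp2 (ENSMUSG00000029610) was also among the complex genes without overlap. It gave 2.58, 4.48 and 2.58 CPM in its controls and 1.82, 1.97 and 2.15 CPM in its knockouts, a log2 fold change of -0.70 (SE 0.28; edgeR adjusted p 0.267). Control replicate 2 stood above the other controls, and without it the log2 fold change was -0.38. Aimp2 shares 487 exonic bases with Eif2ak1 in the annotation. Its log2 fold change was -0.30 with forward-strand counts, -0.58 with reverse-strand counts and -0.26 with library totals. The other scaffold, Aimp1, measured 13.6, 16.6 and 18.8 CPM across controls 1 to 3, against 13.9, 13.5 and 12.6 CPM across the knockouts, and its groups overlapped at control replicate 1. Eef1e1, the third scaffold of the complex, gave 2.93, 4.07 and 4.43 CPM in its controls and 3.38, 2.77 and 2.39 CPM in its knockouts, again with overlap (edgeR adjusted p 0.427).

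At the other end of the cytosolic order was Vars1 (ENSMUSG00000007029), the valyl enzyme. It measured 23.3, 23.1 and 20.5 CPM across controls 1 to 3, against 26.6, 25.8 and 25.5 CPM across the knockouts. All knockouts lay above all controls, the only such cytosolic or dual gene, with a log2 fold change of 0.22 (SE 0.12; edgeR adjusted p 0.404). Lars1 (ENSMUSG00000024493), the leucyl enzyme, gave 40.2, 41.0 and 33.1 CPM in its controls and 33.6, 43.9 and 47.1 CPM in its knockouts. Cars1 (ENSMUSG00000010755), the cysteinyl enzyme, measured 24.0, 33.3 and 24.4 CPM across controls 1 to 3, against 26.6, 33.3 and 26.8 CPM across the knockouts. The groups overlapped in both.

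A further 13 cytosolic and dual genes had log2 fold changes from -0.28 for Mars1 to 0.00 for Wars1, 12 of them below 0. Knockout replicate 1 was the lowest of the 6 libraries in 13 of the 20 cytosolic and dual genes. Without that library the cytosolic median was -0.11, and 13 of 20 genes lay below the median of all genes. With TMM, acinar markers moved with the cytosolic set: 13 of 14 had a log2 fold change below 0, with a median of -0.47. With library totals 7 of 14 lay below 0, with a median of -0.03. Set against the median of all genes, their median was -0.49 with TMM and -0.46 with library totals. A term for the Xist-positive libraries, control replicates 2 and 3, leaves control replicate 1 as the only control compared with the knockouts. With that term the medians were -0.10 for the acinar markers and -0.17 for the cytosolic set. The part of the acinar markers, or of sex, in the synthetase values was not tested.

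Mitochondrial members spread further in both directions. Their levels were also lower, with a median control mean of 4.86 CPM against 34.8 CPM for the cytosolic and dual genes. The part of low counts in the wider spread was not tested. Vars2 (ENSMUSG00000038838), the mitochondrial valyl enzyme, gave 2.58, 4.44 and 3.09 CPM in its controls and 5.23, 5.71 and 5.98 CPM in its knockouts. All knockouts lay above all controls. Mean levels were 3.37 CPM ± 0.958 for control and 5.64 CPM ± 0.382 for knockout (SD, n = 3), or 0.75 on the log2 scale (SE 0.22; edgeR adjusted p 0.148). With the block it rose by 0.77 (SE 0.20; adjusted p 0.0465), a call that was lost without pair 1 (adjusted p 0.165), pair 2 (0.174) or pair 3 (0.09998). The 2 copies of the NRF1 centre are in its promoter printed above. Vars2 shares 465 exonic bases with the gene model Gm20483 in the annotation.

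Sars2 (ENSMUSG00000070699), the mitochondrial seryl enzyme, measured 1.54, 2.38 and 1.67 CPM across controls 1 to 3, against 3.30, 2.48 and 2.84 CPM across the knockouts. Tars2 (ENSMUSG00000028107), for threonine, gave 7.59, 7.02 and 5.53 CPM in its controls and 9.14, 9.42 and 8.48 CPM in its knockouts. Cars2 (ENSMUSG00000056228), for cysteine, measured 6.39, 6.94 and 6.54 CPM across controls 1 to 3, against 8.44, 8.51 and 7.72 CPM across the knockouts. In each of the 3 all knockouts lay above all controls, with log2 fold changes of 0.63 (SE 0.27), 0.42 (SE 0.16) and 0.31 (SE 0.13) and adjusted p of 0.292, 0.230 and 0.280 in edgeR's test. Under library totals Vars2, Sars2, Tars2 and Cars2 were among 7 members called, all higher, against 11.6% of all genes called in that fit.

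Lars2 (ENSMUSG00000035202), the mitochondrial leucyl enzyme, had the highest mean CPM of all members in control. In knockout its mean lay just below that of Wars1. It gave 130, 275 and 102 CPM in its controls and 87.3, 109 and 80.4 CPM in its knockouts. Control replicate 2 stood far above the other 5 libraries, and control replicate 3 lay below knockout replicate 2. The knockout was lower in each numbered pair. The log2 fold change was -0.87 (SE 0.37; adjusted p 0.299 in edgeR's test), and with the block Lars2 fell by 0.75 (SE 0.20; adjusted p 0.0491). The blocked call was lost without pair 1 (adjusted p 0.0959) and without pair 2 (log2 fold change -0.46, adjusted p 0.448), and it was kept without pair 3 (adjusted p 0.00193). Without control replicate 2 the log2 fold change was -0.33 in the fit without the block. With library totals the blocked adjusted p was 0.201. Of its strand-resolved counts, 38.1% to 43.4% were on the forward strand, against 50.1% to 50.3% over all genes; the part of this in the result was not tested.

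Further mitochondrial genes lay at the low end. Fars2 (ENSMUSG00000021420), for phenylalanine, measured 5.89, 6.61 and 8.76 CPM across controls 1 to 3, against 5.60, 5.17 and 5.34 CPM across the knockouts, without overlap, and a log2 fold change of -0.40 (SE 0.18; edgeR adjusted p 0.303). Without control replicate 3, its highest library, the log2 fold change was -0.22. Nars2 (ENSMUSG00000018995), for asparagine, gave 3.72, 4.40 and 4.73 CPM in its controls and 3.08, 3.97 and 3.35 CPM in its knockouts, with overlap. Mars2 (ENSMUSG00000046994), for methionine, measured 5.48, 4.48 and 4.62 CPM across controls 1 to 3, against 3.65, 4.42 and 4.43 CPM across the knockouts, where the lowest control and the highest knockout nearly met. A further 8 mitochondrial genes had log2 fold changes from -0.21 for Rars2 to 0.39 for Aars2.

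**Figure D3:**
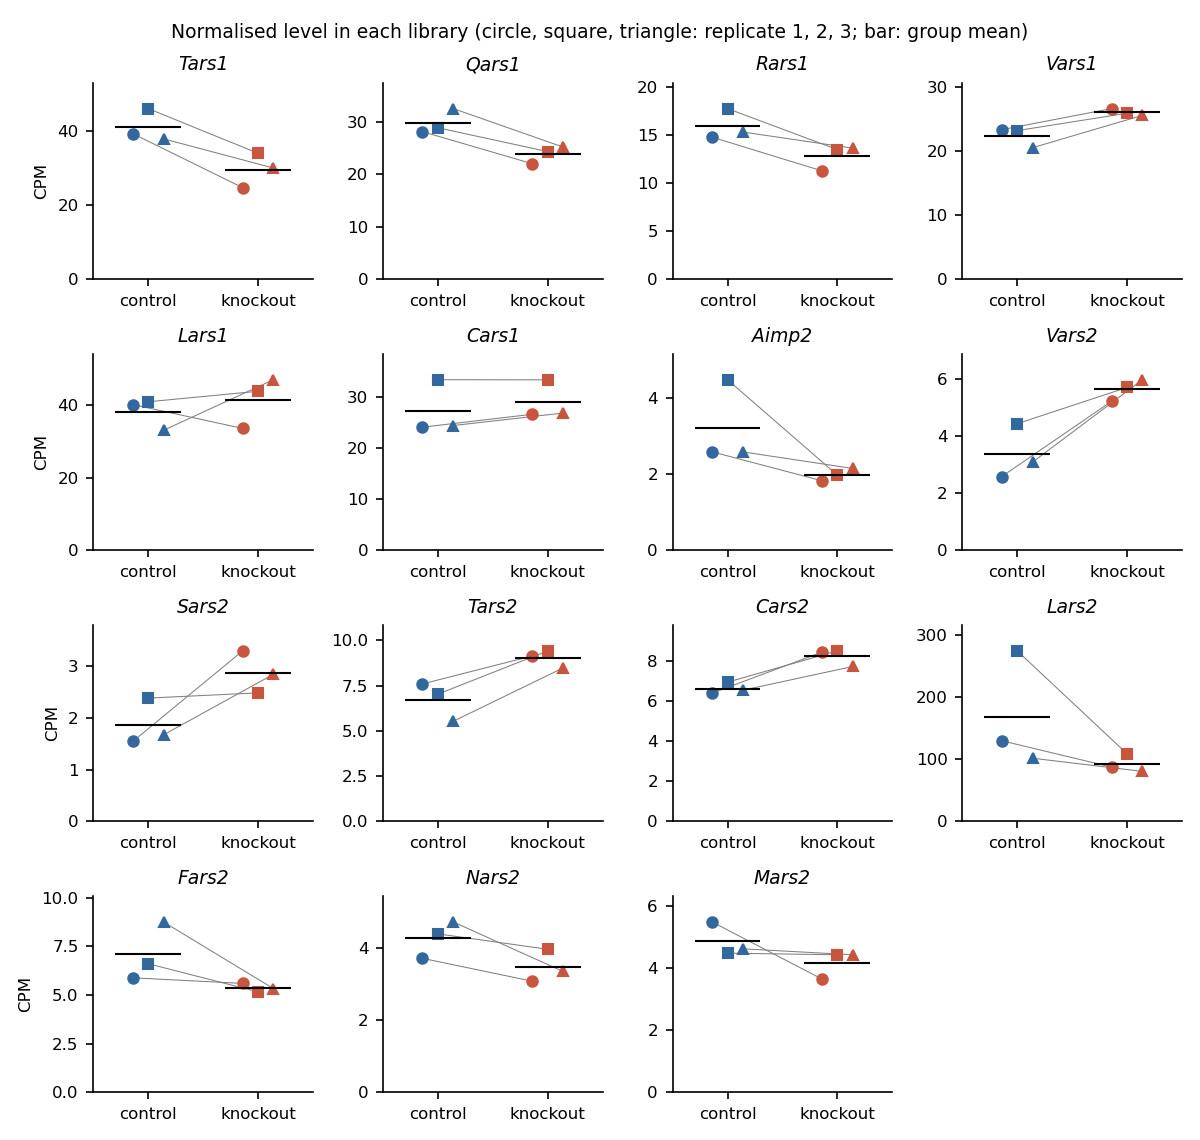
CPM of 15 members in each library; blue symbols are controls, red symbols knockouts, with circle, square and triangle for replicates 1, 2 and 3, thin lines joining equal numbers and bars at the group means. Tars1, Qars1, Rars1, Aimp2, Fars2 and Mars2 have all knockouts below all controls, Vars1, Vars2, Sars2, Tars2 and Cars2 have all above, and Lars2 control replicate 2 stands at 275 CPM.

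Glutamine is a special case in mitochondria. No mitochondrial glutaminyl synthetase exists in animals; Ears2 puts glutamate on the glutamine tRNA and an amidotransferase of Qrsl1, Gatb and Gatc products converts it. Ears2 gave 3.65, 3.41 and 3.56 CPM in its controls and 3.14, 3.37 and 4.77 CPM in its knockouts. Qrsl1 measured 2.39, 2.34 and 2.07 CPM across controls 1 to 3, against 2.87, 1.94 and 2.49 CPM across the knockouts. Gatb (log2 fold change 0.03, edgeR adjusted p 0.961) and Gatc (-0.01, adjusted p 0.983) also overlapped between the groups.

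For the 13 amino acids compared here the cytosolic and the mitochondrial enzyme come from separate genes, so the partners can be set side by side. Threonine has a further synthetase gene, Tars3, which the symbol rule did not match and which is in neither the pairs nor the sums. Tars3 gave 5.9, 6.3 and 7.0 CPM in its controls and 5.0, 5.5 and 6.6 CPM in its knockouts (log2 fold change -0.16, edgeR adjusted p 0.688). The mitochondrial partner had the higher log2 fold change in 10 of 13. For threonine the values were -0.47 (Tars1) and 0.42 (Tars2), for serine -0.27 (Sars1) and 0.63 (Sars2), for alanine -0.24 (Aars1) and 0.39 (Aars2), and for leucine 0.12 (Lars1) and -0.87 (Lars2). Valine was the only amino acid whose partners both had all knockouts above all controls.

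**Figure D4:**
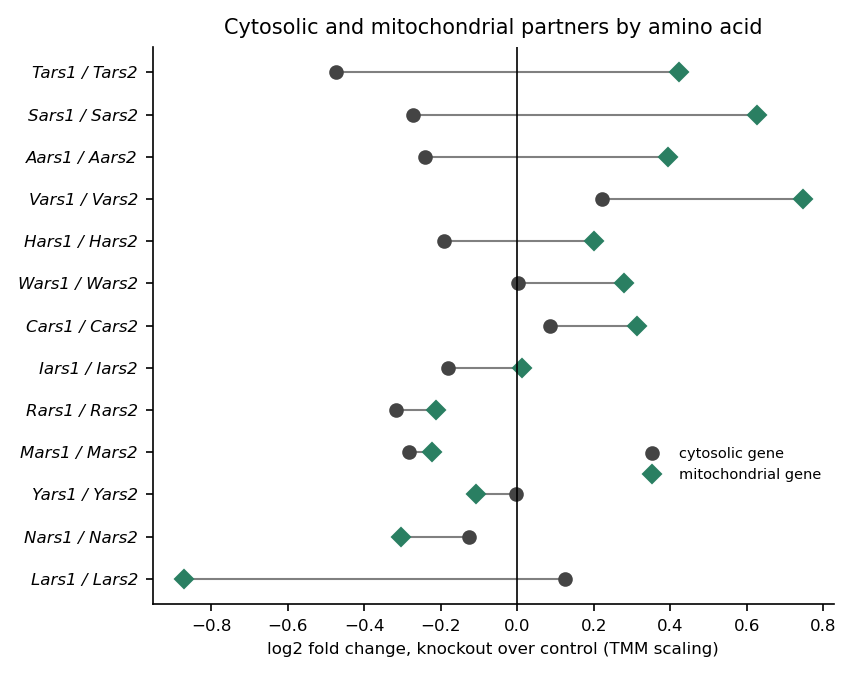
Log2 fold change of knockout over control for the cytosolic gene (circle) and the mitochondrial gene (diamond) of 13 amino acids, ordered by their difference. The mitochondrial gene lies to the right in 10 of 13, and leucine has the widest gap to the left, from 0.12 to -0.87.

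A ratio within a library needs no scaling between libraries. Tars2 stood at 19.3%, 15.3% and 14.6% of Tars1 in control replicates 1 to 3 and at 37.1%, 27.8% and 28.3% in knockout. Sars2 stood at 2.60%, 3.37% and 2.19% of Sars1 in control and at 6.07%, 4.08% and 5.12% in knockout. In both the groups did not overlap, and the same held for Hars2 over Hars1 and Vars2 over Vars1 upward and for Lars2 over Lars1 downward. That is 4 of 13 ratios upward and 1 downward. The share of ratios without overlap among other gene pairs was not computed, so these counts describe the pairs only. For single genes it was 22.9%. Lars2 stood at 323%, 670% and 307% of Lars1 in control and at 259%, 248% and 171% in knockout. Hars1 and Hars2 share 195 exonic bases in the annotation.

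Summed over the class, the 16 mitochondrial synthetases without Lars2 came to 10.5%, 10.6% and 10.8% of the 20 cytosolic and dual genes in control replicates 1 to 3 and to 13.1%, 12.1% and 12.2% in knockout. The means were 10.7% ± 0.153 (SD, n = 3) and 12.5% ± 0.554, and the groups did not overlap. With Lars2 included the controls came to 28.3%, 44.6% and 23.6% and the knockouts to 26.7%, 27.4% and 22.7%, and the groups overlapped. Leaving out Lars2 was decided after its values were seen, and no test was made of these sums. A ratio shows unequal change, and not which of its 2 parts changed.

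**Figure D5:**
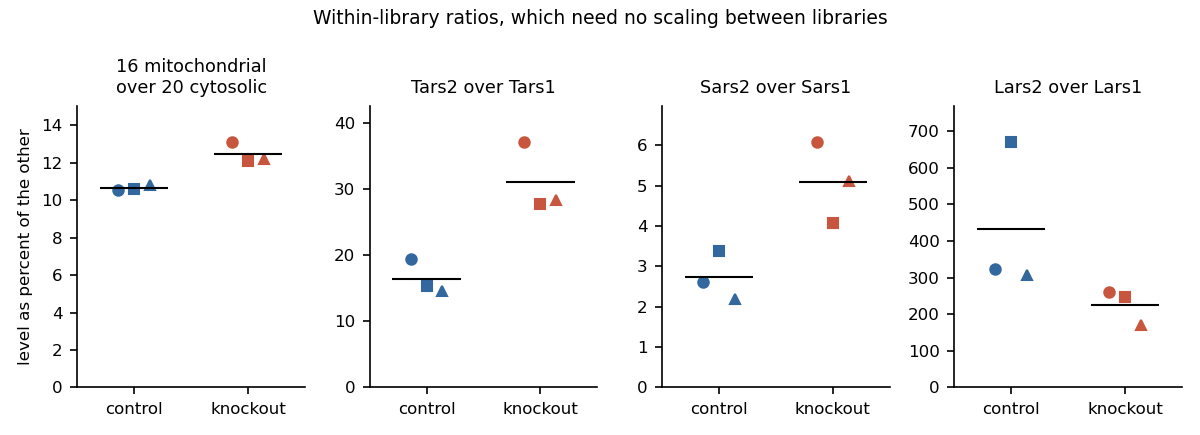
Within-library ratios in percent: the summed level of 16 mitochondrial synthetases without Lars2 over 20 cytosolic and dual ones, and Tars2, Sars2 and Lars2 over their cytosolic partners; blue symbols are controls, red knockouts, shapes are replicate numbers and bars are means. The first 3 ratios have all knockouts above all controls (12.1% to 13.1% against 10.5% to 10.8% for the sums), and the Lars2 ratio has all knockouts below.

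Genes around tRNA charging gave no call either. Of 22 genes for tRNA charging, maturation, export, editing and delivery, among them Tars3, 21 were tested. None was called by edgeR with or without the block, against 0.945% and 5.99% of all genes. The median was -0.05, with 13 of 21 below 0, and 2 passed an unadjusted p under 0.05. Mtfmt, which formylates the mitochondrial initiator tRNA charged by Mars2, gave 1.39, 1.56 and 1.31 CPM in its controls and 2.25, 2.08 and 3.03 CPM in its knockouts (log2 fold change 0.79, SE 0.28; edgeR adjusted p 0.214). Gcn1, which brings the uncharged-tRNA sensor GCN2 to stalled ribosomes, measured 25.6, 24.7 and 24.5 CPM across controls 1 to 3, against 31.0, 28.0 and 33.3 CPM across the knockouts (adjusted p 0.267). Both were picked out after their values were seen, and in both all knockouts lay above all controls. Over the 21 genes this held for 3, against 12% of all genes, and all knockouts lay below all controls in 2 (Pstk and Trnt1), against 10.9%. None of 12 genes for mitochondrial translation and transcription was called with or without the block, with 2 at an unadjusted p under 0.05 and a median of 0.01.

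Synthetases known as ATF4 targets were set beside the rest of the ATF4 pathway. The 12 synthetases on that list had a median of -0.15, with 9 below 0. None was called, against 0.945% of all genes. In 1 of the 12 all knockouts lay below all controls, against 10.9% of all genes, and in none did all lie above. The 29 other pathway genes had a median of 0.16, with 19 above 0 and 7 with all knockouts above all controls, against 12% of all genes. In 1 (Gpt2, log2 fold change -0.43) all knockouts lay below all controls, against 10.9% of all genes. The difference between these 2 lists was not tested. Set against the median of all genes, the medians were -0.18 and 0.14, with library totals -0.18 and 0.13, and without knockout replicate 1 -0.05 and 0.22, and with the Xist term -0.21 and 0.08. The 8 cytosolic and dual synthetases not known as ATF4 targets had a median of -0.22, or -0.25 against all genes, with 7 below 0. Of these 8, 3 had all knockouts below all controls and 1 had all above, against 10.9% and 12% of all genes. Their difference from the 12 known targets was not tested.

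Atf5, a transcription factor of the same stress pathway, was the 1 pathway gene called by edgeR, against 0.945% of all genes. It gave 39.8, 51.4 and 26.5 CPM in its controls and 104, 103 and 111 CPM in its knockouts, and rose by 1.43 on the log2 scale (SE 0.23; adjusted p 0.0265). Gdf15, a secreted stress hormone, was called with the block (log2 fold change 2.44, edgeR adjusted p 0.0119), under which 2 of the 29 were called against 5.99% of all genes. It went from at most 0.370 CPM in control to between 0.992 and 1.74 CPM in knockout. Atf4 itself measured 81.6, 112 and 98.1 CPM across controls 1 to 3, against 81.2, 98.7 and 80.0 CPM across the knockouts, with overlap. Asns, the asparagine synthetase and a classical ATF4 target, gave 218, 269 and 231 CPM in its controls and 178, 210 and 226 CPM in its knockouts, also with overlap. ATF4 is controlled mainly at translation, which messenger RNA counts do not measure.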

How the data were processed

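RNA-seq of 6 mouse acinar libraries was analysed from the deposited tables of raw, whole-number counts per Ensembl gene. The submitters' processing notes name STAR 2.7.10a and genome build GRCm39 (mm39); the annotation and whether 1 count is a read or a read pair are not given in the sources used here. The deposited counts without regard to strand were used, and the 4 rows outside genes, 43.5% to 45.7% of all reads in control and 36.9% to 41.1% in knockout libraries, stayed out of library sizes and tests. Symbols, exon lengths and overlaps come from GENCODE M21 on GRCm38, which named 52133 of 55414 identifiers. The only coordinates given are therefore those of the RefSeq promoter table. In that annotation 16 of the 40 members share exonic bases with another gene, among them Aars1 (1403 bases), Fars2 (616), Cars2 (422) and Nars2 (284).

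Tests used edgeR 4.0.16 in R 4.3.3 (filterByExpr, TMM, robust quasi-likelihood F test, no covariate), with Benjamini-Hochberg adjustment over 13115 genes and a threshold of 0.05. SEs are the fold change over the square root of F. The test was run on counts simulated with known fold changes at a single dispersion of 0.05, without pairing or a sex difference. That run cannot show how the test performs on libraries with these features. Deviations from group means correlated at 0.63, 0.455 and 0.285 in the 3 same-numbered pairs, and between -0.496 and 0.21 otherwise, so the replicate number was used as a block beside the main fit. No 2 libraries agreed within sampling noise (chi-square per gene at least 26.3).

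Values in all libraries are given for members called with or without the block, for the 3 highest and 3 lowest fold changes of each compartment, and for Rars1, Aimp2, Cars2 and Mars2, chosen because their groups did not overlap. A few members count in the totals but are not reported here by name. Other members named were chosen after their values were seen. Members and lists were chosen with earlier results of these data known. Alternatives covered scaling, filters, DESeq2 1.42.0, each strand's counts, the block, a term for libraries with over 100 Xist counts and leaving out each library. The block with other scalings was chosen after seeing the data. The Xist term marks control replicates 2 and 3, so its group difference sets the knockouts against control replicate 1 alone. Only effect sizes are given for it.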

Additional observations from a re-analysis of the deposited data

How the results depend on the processing

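Of 40 members, 0 were called. This held with DESeq2's size factors or Wald test, with abundant genes left out of library sizes and with a minimum of 10 counts per library. It also held with either strand's counts and without each single library. The number became 7 with library totals (all higher), 2 without a filter and 2 with the replicate block. It was 8 with the block and library totals, and 2 with the block and abundant genes left out. With the block it was 0 without pair 1 or 2 and 2 without pair 3. Over all genes 124 were called, 1519 with library totals, 850 without a filter, 210 with at least 10 counts and 594 with DESeq2's Wald test. With the block 785 were called, 3259 with library totals added and 786 with abundant genes left out. Leaving out 1 library gave 20 to 461 and leaving out 1 pair under the block 396, 100 and 832 for pairs 1, 2 and 3. The cytosolic median of -0.19 became 0.23 with library totals, also with the block. The mitochondrial median of 0.04 became 0.46 with library totals (0.46 with the block) and 0.18 with the Xist term, and ran from -0.0792 to 0.13 without single libraries, so its sign is not settled. Library totals raised the median of all genes by 0.407, which shifts every value. Under them Fars2 (0.0302), Nars2 (0.12), Qars1 (0.0922), Rars1 (0.10) and Mars2 (0.17) changed sign, and with the block added they stood at 0.0383, 0.12, 0.10, 0.10 and 0.20. Elsewhere Nars2 turned to 0.0381 with reverse-strand counts, Lars1 to -0.0793 under the block without pair 3, and Cars1 to -0.02 without control replicate 1 and -0.0326 without knockout replicate 2 (0.2543 without control replicate 2); the cause was not tested. Of all 40 members, 22 changed sign with library totals, but 2 changed side of the median of all genes. Vars2 stayed above 0 (0.5595 to 1.1957) and Lars2 below 0 (-1.14 to -0.33) in all 21 alternatives. Outside the fit with the Xist term, adjusted p ran from 0.00710 to 0.381 for Vars2 and from 0.00124 to 0.6125 for Lars2. Depth limits Pars2 and Wars2 most, with SEs of 0.46 and 0.34.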

Other observations

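Lars2 stood out by strand. The libraries carry no strand information over the whole transcriptome, with 50.1% to 50.3% of strand-resolved counts on the forward strand in the 6 libraries. Lars2 had between 38.1% and 43.4% of its counts on the forward strand in the 6 libraries. The 15 other members with a mean of at least 500 counts, and strand counts summing to within 1% of the unstranded count, lay between 45.5% and 55.5%. Over all 1944 genes meeting the same 2 conditions, 1 was farther from an even split than Lars2. Its level, 169 CPM in control against at most 17.6 CPM for any other mitochondrial synthetase, and the height of control replicate 2 (275 CPM) also set this gene apart. Which part of the gene these reads come from cannot be read from counts per gene.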
